A study of Mus musculus with 6 samples.

Results

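A list of 10 regulators and markers of the trophoblast, the lineage that forms the placenta, was followed in haploid and diploid mouse embryonic stem (ES) cells: Elf5, Gata2, Gata3, Tfap2a, Tfap2c, Ets2, Hand1, Ascl2, Plac1 and Esx1. The members were chosen by name, with earlier results of these data known. A gene was measured by the probe sets that the platform annotation assigns to its symbol alone, and the brightest of them by its mean on the 6 arrays stood for it. All 10 members were found, by 21 of the 45037 probe sets, among 18193 genes in all, and none was removed by a filter on low values. Of these genes 9 encode transcription factors. Plac1 does not: it is a placenta-enriched protein of the secretory pathway and cell surface.

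RNA of 3 haploid and 3 diploid ES cell samples was measured on an Affymetrix GeneChip, 1 array per sample, all cultured in 2i medium, in which MEK and GSK3 are inhibited, and taken on day 2 after passaging. The haploid samples are the lines HAP1 at passage 24 and HAP2 at passage 21, both of strain F1 CBAxB6, and HTG1 at passage 11, whose strain is labelled mixed transgenic; they are haploid replicates 1, 2 and 3. The diploid samples are male lines, replicates 1 and 2 labelled 129Sv and replicate 3 labelled 129, titled biological replicates, and the labels do not say whether they are separate lines. No sample shares a strain with the other group, so ploidy and strain cannot be told apart. Sex chromosome content differs between male diploid and haploid cells as well, and passage is given for the haploid lines only. Neither can be told apart from ploidy here. Each haploid line is 1 sample, and the transgene of HTG1 and the fraction of each culture that was still haploid are not stated in the labels.

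In the mouse embryo, trophoblast and the cells that give rise to ES cells separate at the blastocyst stage. Cdx2, Eomes and Tead4 establish trophoblast, Gata3, Tfap2c, Elf5 and Ets2 maintain or extend the stem cell state of that lineage, and Hand1 and Ascl2 act later, in giant cells and in the spongiotrophoblast. ES cells hold the program down, in part through Pou5f1 and in part through DNA methylation of the Elf5 promoter. Several members also work elsewhere: Gata2 in blood stem cells, Tfap2c in germ cells, and Tfap2a in neural crest and skin.

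The stretches upstream of the transcription start are shown for the 3 members that differed between the groups, Gata2, Gata3 and Ets2, and for Elf5, whose promoter methylation is the known barrier in ES cells. Each is 250 bases long, from RefSeq with build GRCm38.p6, read 5′ to 3′ on the strand of the gene, with capitals marking each CpG, the dinucleotide that carries DNA methylation.
Gata2, first start site, chr6:88193641-88193890, plus strand: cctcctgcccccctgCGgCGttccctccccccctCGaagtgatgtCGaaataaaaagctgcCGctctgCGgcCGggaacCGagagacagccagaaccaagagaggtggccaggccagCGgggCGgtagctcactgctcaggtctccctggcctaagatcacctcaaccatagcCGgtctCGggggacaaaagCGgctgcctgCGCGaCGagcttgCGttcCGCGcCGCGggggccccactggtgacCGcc
Gata2, second start site, chr6:88198414-88198663, plus strand: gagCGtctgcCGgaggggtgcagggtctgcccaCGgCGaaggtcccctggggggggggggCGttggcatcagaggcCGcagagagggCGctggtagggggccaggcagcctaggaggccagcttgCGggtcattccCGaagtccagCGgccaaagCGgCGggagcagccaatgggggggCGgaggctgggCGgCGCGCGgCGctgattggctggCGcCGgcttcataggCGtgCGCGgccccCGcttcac
Gata3, chr2:9878601-9878850, minus strand: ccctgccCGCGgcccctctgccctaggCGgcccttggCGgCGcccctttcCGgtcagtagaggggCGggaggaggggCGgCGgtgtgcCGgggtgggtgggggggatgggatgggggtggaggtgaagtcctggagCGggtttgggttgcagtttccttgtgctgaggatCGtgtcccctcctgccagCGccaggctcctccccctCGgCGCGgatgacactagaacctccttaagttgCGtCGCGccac
Ets2, chr16:95702157-95702406, plus strand: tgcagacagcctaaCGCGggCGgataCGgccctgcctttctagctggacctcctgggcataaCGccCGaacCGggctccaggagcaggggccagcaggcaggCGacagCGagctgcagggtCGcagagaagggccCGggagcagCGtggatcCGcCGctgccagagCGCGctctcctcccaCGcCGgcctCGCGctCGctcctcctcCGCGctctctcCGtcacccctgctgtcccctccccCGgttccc
Elf5, first start site, chr2:103411848-103412097, plus strand: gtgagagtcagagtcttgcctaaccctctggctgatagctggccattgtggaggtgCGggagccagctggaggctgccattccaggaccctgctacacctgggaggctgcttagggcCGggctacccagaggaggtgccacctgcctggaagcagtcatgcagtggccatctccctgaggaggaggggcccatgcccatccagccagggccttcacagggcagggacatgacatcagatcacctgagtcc
Elf5, second start site, chr2:103423818-103424067, plus strand: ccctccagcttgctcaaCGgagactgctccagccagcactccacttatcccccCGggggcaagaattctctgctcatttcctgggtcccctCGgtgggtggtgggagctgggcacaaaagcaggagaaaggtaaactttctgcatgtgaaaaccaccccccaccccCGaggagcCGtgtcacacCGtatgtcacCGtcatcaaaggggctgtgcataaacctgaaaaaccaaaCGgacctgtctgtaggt

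The 3 genes that differed have CpG-rich upstream stretches. Gata2 has 22 and 24 CpG at its start sites, Gata3 has 19 and Ets2 has 25, where the median of 32851 RefSeq promoters is 6. Elf5 has 2 at the first start site and 8 at the second. Esx1 has 24 and Ascl2 has 19, and neither passed the test between the groups. The remaining stretches have 10 CpG at both start sites of Tfap2a and 4 and 2 at those of Plac1. RefSeq promoters were matched for 8 members (12 start sites), and Tfap2c and Hand1 were not among them. A search on both strands for the AP-2 motif GCCNNNGGC found 3 matches upstream of Gata3 and 1 at the second start site of Gata2, and 13.7% of all promoters hold at least 1. The GATA core preceded by A or T and followed by A or G matched at the first start site of Elf5 and the second of Plac1, against 26.5% of all promoters. The ETS word CCGGAA matched once, upstream of Gata3 (12% of all promoters), and the TEAD word GGAATG at the second start site of Gata2 and the first of Elf5 (12.6%).

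Values are RMA signals on the log2 scale, which have no absolute zero. The array median over all probe sets lay between 6.31 and 6.33. Of the 10 members, 6 were above the median on all 6 arrays: Gata2, Tfap2c, Ets2, Hand1, Ascl2 and Esx1. Tfap2a was above on 4 arrays and Gata3 on 1, and Elf5 and Plac1 were above on none. Because the brightest probe set stands for each gene, 60% of all 18193 genes were above on all 6 arrays, the same share as among the members. Against the median over genes the count was 3 (Gata2, Tfap2c and Ets2), and with the mean of each gene's probe sets it was 4.

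A list of genes of adult tissues, among them albumin (Alb) and the pituitary hormone precursor Pomc, shows what values the array returns for genes that ES cells are not known for. Of its 11 measured genes, 5 were above the array median on all 6 arrays, and its highest value was 7.84, for Pomc. Tfap2c and Ets2 exceeded 7.84 on all 6 arrays, and Gata2 on the 3 haploid arrays and in diploid replicate 1. The other 7 members never did. Probe sets differ in how strongly they bind, so values of different genes cannot be ranked, and for those 7 the arrays do not separate low expression from background.

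**Figure D1:**
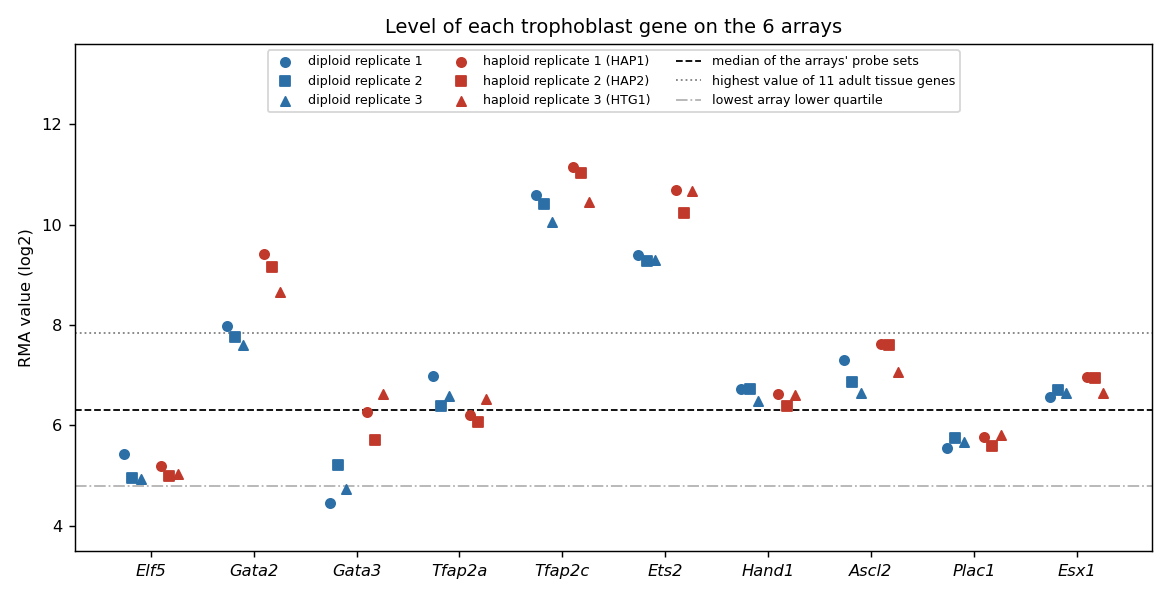
RMA value (log2, vertical axis) of each of the 10 genes on each array, with blue points for the 3 diploid and red points for the 3 haploid samples and a marker shape for each replicate. The dashed line is the median of the arrays' probe sets, the dotted line the highest value of the adult tissue genes (7.84) and the dash-dotted line the lowest array lower quartile (4.80). Gata2, Gata3 and Ets2 are the genes whose red points all lie above their blue points.

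The comparison of haploid with diploid samples addressed expression by ploidy under one culture condition. Gata2 and Ets2 rose in the haploid lines, by 2.46-fold and 2.31-fold, and the probe set of Gata3 gave higher values there. Gata3 lay under the highest adult tissue value of 7.84 on all arrays, so neither group is separated from background. No member passed as lower. In limma, with p-values adjusted over all 18193 genes, 3 of 10 members passed as higher against 7.92% of all genes, and 0 of 10 as lower against 6.96%. At an unadjusted p under 0.05 in limma 4 members were higher and 0 lower, against 15.4% and 15.8% of all genes. The 3 haploid values lay above the 3 diploid values for the same 3 members, against 17.7% of all genes, and below them for none, against 20.2%. The median difference was 0.36 over the members and -0.03 over all genes, and 7 members had a positive and 3 a negative difference, where 45.8% of all genes had a positive one. In bulk RNA, fewer cells of a type and less RNA per cell cannot be told apart, so a difference can lie in every cell or in a part of the culture. The p-values set each difference against the spread between these samples, and the diploid ones may not be separate lines.

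**Figure D2:**
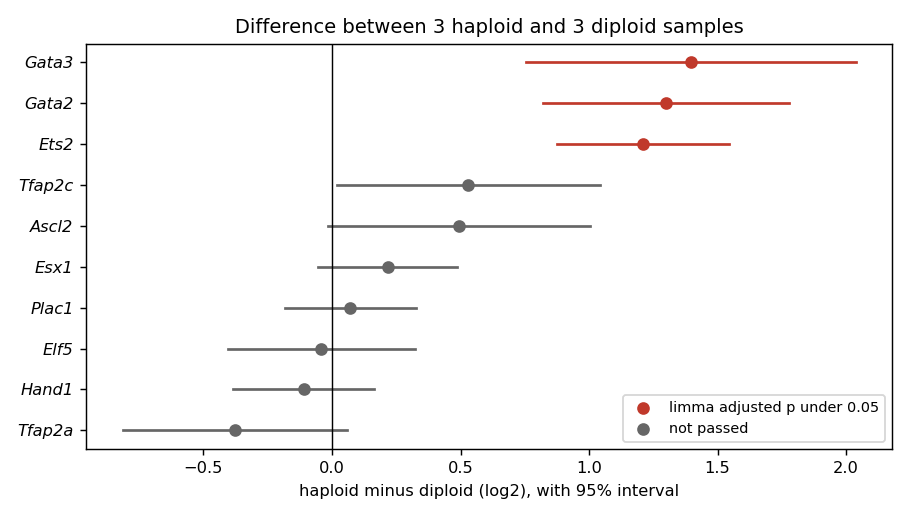
Difference of the mean of 3 haploid and 3 diploid samples (log2, horizontal axis) with its 95% interval from limma, 1 row per gene. Gata3, Gata2 and Ets2, in red, passed the adjusted threshold of 0.05, and the intervals of Ascl2, Esx1, Plac1, Elf5, Hand1 and Tfap2a include 0.

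Gata2 (probe set 1450333_a_at, chromosome 6), a zinc finger factor of trophoblast giant cells and of blood stem cells, stood at 7.97, 7.77 and 7.60 in diploid replicates 1 to 3. In the haploid lines it stood at 9.42 in HAP1, 9.16 in HAP2 and 8.67 in HTG1. Every haploid value was above every diploid one, and the transgenic line was the lowest of the haploid lines. The difference was 1.30 ± 0.20 (log2, SE, n = 3 per group), or 2.46-fold, with a limma adjusted p of 0.00891. Its second probe set had a smaller difference of 0.77 ± 0.15 with the same order of the lines. The genes on chromosome 6 as a whole were shifted by 0.29 on the array of diploid replicate 1, against -0.11 and -0.10 for the other diploid arrays, relative to all autosomes. With each chromosome's shift subtracted, Gata2 differed by 1.35. Gata2 passed without any one array, with limma adjusted p of 0.00566 to 0.0465.

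Gata3 (1448886_at, chromosome 2), the GATA factor that acts beside Cdx2 in early trophectoderm, was dim in the diploid samples, at 4.46, 5.22 and 4.74, near the lowest array lower quartile of 4.80. The haploid lines stood at 6.26 in HAP1, 5.72 in HAP2 and 6.63 in HTG1. Again no haploid value overlapped a diploid one, but here HTG1 was the highest, and it was the single sample above its array median. The difference in probe set value was 1.40 ± 0.27 (log2, SE, n = 3 per group), with a limma adjusted p of 0.0185. It is not given as a fold, since the values of both groups lay under the highest adult tissue value and are not separated from background. RMA compresses differences of dim genes, and Gata3 had 1 probe set, so no other measurement of it could be compared. Without diploid replicate 3 it differed by 1.36 and did not pass (limma adjusted p = 0.0765), and without any other single array it passed (0.0184 to 0.0467).

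Ets2 (1416268_at, chromosome 16), an ETS factor that acts downstream of FGF and ERK signalling in trophoblast stem cells, was bright in both groups. Its diploid values were 9.40, 9.27 and 9.30, within 0.13 of each other, and its haploid values were 10.70 in HAP1, 10.24 in HAP2 and 10.67 in HTG1. The groups stood apart by much more than either varied. The difference was 1.21 ± 0.14 (log2, SE, n = 3 per group), or 2.31-fold, with a limma adjusted p of 0.00399. A second probe set moved by 0.95 ± 0.15 and also passed, while the third, at 4.09 to 4.70 on all arrays, moved by 0.23 ± 0.15 and did not. Because of that dim probe set the mean of the 3 differed by 0.80. Ets2 passed under all 15 alternatives, those that left out 1 array included.

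Of all 45037 probe sets tested on their own, 2708 (6.01%) passed as higher and 2390 as lower. Among the 21 probe sets of the members 5 passed as higher and 0 as lower. They were both of Gata2, that of Gata3 and 2 of the 3 of Ets2.

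**Figure D3:**
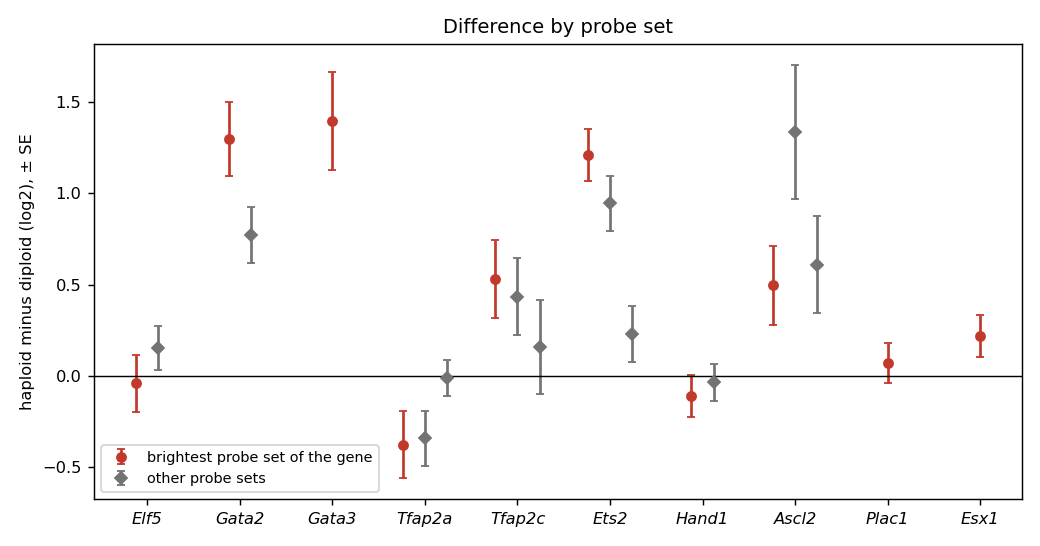
Difference between haploid and diploid samples for each of the 21 probe sets (log2, vertical axis, bars show SE), with the brightest of each gene in red and the others in grey. Both probe sets of Gata2 lie above 0.7, the third of Ets2 lies at 0.23, and the probe sets of Ascl2 run from 0.50 to 1.34.

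The AP-2 factors Tfap2c and Tfap2a had differences of opposite sign, and neither passed. Tfap2c (1436392_s_at, chromosome 2), needed for trophoblast and germ cells, had diploid values of 10.58, 10.41 and 10.05. HAP1 at 11.14 and HAP2 at 11.04 were above all diploid samples, and HTG1 at 10.45 was within their range. The difference was 0.53 ± 0.22 (log2, SE, n = 3 per group), with a 95% interval from 0.02 to 1.04 and a limma adjusted p of 0.149. Without HTG1 it was 0.74 and passed (limma adjusted p = 0.0449), and with array weights it was 0.68 and passed (0.0478). Its other probe sets differed by 0.43 and 0.16, and on the last of these HTG1, at 9.02, was below the lowest diploid value of 9.41.

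Tfap2a (1421996_at, chromosome 13) stood at 6.98, 6.39 and 6.58 in the diploid samples and at 6.22, 6.07 and 6.53 in HAP1, HAP2 and HTG1. HAP1 and HAP2 were below all diploid samples, and HTG1 was within their range. The difference was -0.38 ± 0.18 (log2 ± SE, 3 arrays per group, adjusted p = 0.213 in limma), with a 95% interval from -0.81 to 0.06. A second probe set gave -0.34 and the third gave -0.01.

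Ascl2 (1460514_s_at, chromosome 7), an imprinted basic helix-loop-helix factor of the spongiotrophoblast, stood at 7.31, 6.87 and 6.64 in the diploid samples. HAP1 and HAP2 both stood at 7.61 to 7.62, above all diploid samples, and HTG1 at 7.07 was within their range. The difference was 0.50 ± 0.22 (log2 ± SE, 3 arrays per group, adjusted p = 0.17 in limma). Its 3 probe sets disagreed on the size: another differed by 1.34 ± 0.37, with haploid values of 6.32 to 7.23 just above the highest diploid value of 6.30, and missed the threshold over all probe sets (limma adjusted p = 0.0614). The third differed by 0.61. With the mean of the 3 the difference was 0.81 and did not pass (limma adjusted p = 0.0911), and with array weights it was 0.67 and passed (0.0416).

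Hand1, a basic helix-loop-helix factor that drives the formation of giant cells, did not differ beyond the spread. Its probe set (1417525_at, chromosome 11) stood at 6.73, 6.72 and 6.50 in the diploid samples and at 6.62, 6.38 and 6.61 in HAP1, HAP2 and HTG1. The difference was -0.11 ± 0.12 (log2 ± SE, 3 arrays per group, adjusted p = 0.553 in limma), with a 95% interval from -0.38 to 0.16. Genes on chromosome 11 were lower by 0.29 in the haploid lines, and with that shift subtracted Hand1 differed by 0.18.

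Elf5 (1419556_at, chromosome 2), the ETS factor that locks in the trophoblast stem cell state, was under the array median in every sample. It stood at 5.44, 4.96 and 4.93 in the diploid samples and at 5.19, 4.98 and 5.03 in HAP1, HAP2 and HTG1. The groups overlapped, and the 95% interval of the difference ran from -0.41 to 0.32 (log2). Its other probe set ran from 4.08 to 4.46, under every array's lower quartile, and differed by 0.15 ± 0.12.

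Plac1 and Esx1 lie on the X chromosome, whose genes were higher by 0.75 (log2) in the haploid lines relative to autosomal genes. Plac1 (1417553_at) stood at 5.55, 5.76 and 5.66 in the diploid samples and at 5.78, 5.59 and 5.82 in HAP1, HAP2 and HTG1. Its groups overlapped, with a difference of 0.07 ± 0.11 (log2 ± SE, 3 arrays per group, adjusted p = 0.691 in limma). The homeobox factor Esx1 (1420602_a_at), expressed in trophoblast and in male germ cells, stood at 6.57, 6.70 and 6.65 in the diploid samples. HAP1 at 6.97 and HAP2 at 6.95 were above them, and HTG1 at 6.66 was within their range. The difference was 0.22 ± 0.11 (log2 ± SE, 3 arrays per group, adjusted p = 0.246 in limma). Subtracting the shift of the X chromosome turned the differences to -0.68 for Plac1 and -0.53 for Esx1, and both passed as lower (limma adjusted p = 0.0106 and 0.0209). That shift was measured on genes above the median level of 7.48, and both genes lie under it. Taking 0.75 from their small differences makes them negative, so these calls follow from the subtraction and do not show lower expression. Both genes were under the highest adult tissue value on all arrays.

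The haploid lines were not alike across the list. HAP1 was above all diploid samples for 7 members and below for 1, HAP2 above for 6 and below for 2, and HTG1 above for 4 and below for 0. Over all genes these shares were 31.3% above and 33.4% below for HAP1, 31.5% and 37.4% for HAP2, and 31.3% and 38.5% for HTG1. Gata2, Gata3 and Ets2 were above in every line. Tfap2c, Ascl2 and Esx1 were above in HAP1 and HAP2 and within the diploid range in HTG1. Plac1 was above in HAP1 and HTG1, by at most 0.16 over the diploid mean. The difference between lines was not tested, since HTG1 is a single sample.

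**Figure D4:**
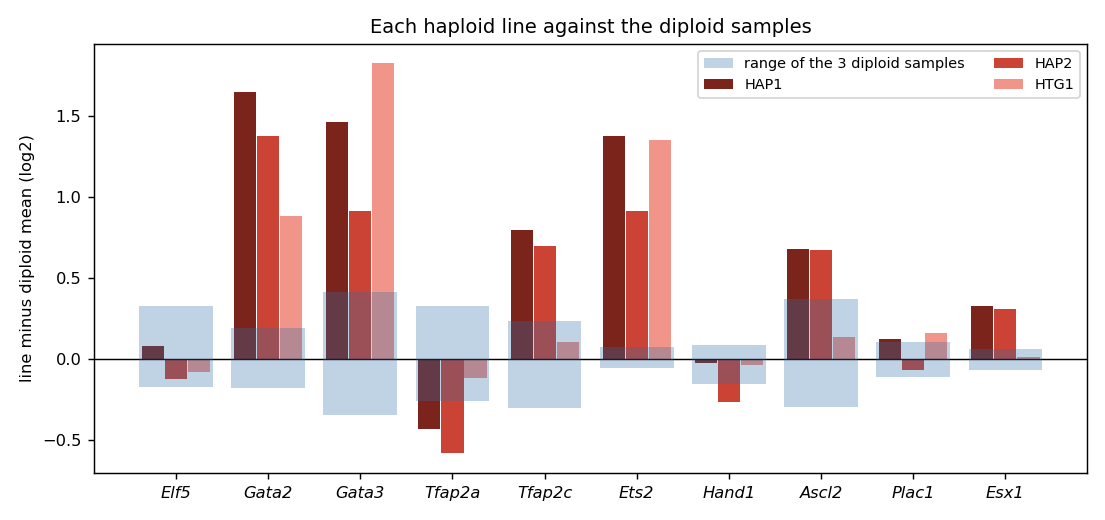
Value of each haploid line minus the mean of the 3 diploid samples (log2, vertical axis), as bars for HAP1, HAP2 and HTG1, with the range of the diploid samples as a blue band. All 3 bars leave the band upward for Gata2 (1.64, 1.37 and 0.88), Gata3 (1.46, 0.91 and 1.82) and Ets2 (1.37, 0.91 and 1.35).

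Of 9095 or 9096 other genes above the median level, those whose values over the 6 arrays were most like a member's were named. For Gata2 they were 8030474K03Rik (Pearson's r = 0.9985), Nol4l (0.9978) and Cdk5 (0.9965). For Gata3 they were the ribosomal protein gene Fau (0.9948), Kmt2c (0.9905) and Agap3 (0.9899), and for Ets2 they were Ddah1 (0.9969), Arih2 (0.9964) and Frmd8 (0.996). The points are 6 arrays in 2 groups that stand apart for each of these members, and the values describe these arrays only.

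Of 15 measured trophoblast stem cell genes, 2 rose and 2 fell, with a median difference of 0.24, beside 7.92% of all genes higher and 6.96% lower. Without HTG1, and with array weights, 4 were called higher, beside 1111 and 2008 of all 18193 genes. Only 1 was called lower without diploid replicate 1, 2 or 3, HAP2 or HTG1. The inhibitor of basic helix-loop-helix factors Id2 stood at 6.66, 7.13 and 7.26 in the diploid samples and at 9.14, 9.27 and 8.09 in the haploid lines, a difference of 1.82 ± 0.32 (log2 ± SE, 3 arrays per group, adjusted p = 0.0139 in limma). Ddah1, an enzyme that degrades methylated arginine and one of the genes most like Ets2, rose by 0.76 ± 0.12 (limma adjusted p = 0.0103). The simple epithelial keratin Krt8 stood at 10.20, 11.05 and 10.68 in the diploid samples and at 8.66, 7.94 and 8.71 in the haploid lines, and fell by 2.21 ± 0.27 (limma adjusted p = 0.0046). Its partner Krt18 fell by 1.23 ± 0.31 (limma adjusted p = 0.0408), a call that was lost when any diploid array, HAP2 or HTG1 was left out (0.0539 to 0.112). The genes that establish the lineage did not pass: Cdx2 differed by 0.05 (limma adjusted p = 0.784), Eomes by -0.07 (0.779), Tead4 by 0.27 (0.406) and the FGF receptor Fgfr2 by 0.03 (0.929). Cdx2 lay at 6.10 to 6.29 in the diploid samples and 6.09 to 6.41 in the haploid lines, about the array median.

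Of 17 measured genes of the Hippo pathway, which controls trophoblast fate through the TEAD factors and their coactivators, 2 rose and 0 fell in limma. Over all genes 7.92% were called higher and 6.96% lower. At an unadjusted p under 0.05 in limma also 2 of the 17 were higher and 0 lower, against 15.4% and 15.8% of all genes. The median difference of the 17 was 0.08. The angiomotin family gene Amotl1 rose by 0.94 ± 0.15 (limma adjusted p = 0.00916), from 8.53 to 9.08 in the diploid samples to 9.66 to 9.82 in the haploid lines. Wwtr1, the coactivator TAZ, rose by 0.58 ± 0.15 (limma adjusted p = 0.0494). That call was lost when any diploid array, HAP2 or HTG1 was left out (limma adjusted p = 0.106 to 0.139). It was also lost with the array medians aligned (limma adjusted p = 0.0551), by quantile normalization (0.0552) and with every probe set tested on its own (0.0566).

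Of 16 measured genes of placental differentiation, 0 passed in limma in either direction, beside 7.92% of all genes higher and 6.96% lower. At an unadjusted p under 0.05 in limma 3 of the 16 were higher and 0 lower, against 15.4% and 15.8% of all genes. The median difference of the 16 was 0.11. The spongiotrophoblast gene Tpbpa stood at 3.92 to 4.27 in the diploid samples and at 4.04 to 4.16 in the haploid lines, under every array's lower quartile. On 9 of the 16 the values were under the array median on all arrays.

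**Figure D5:**
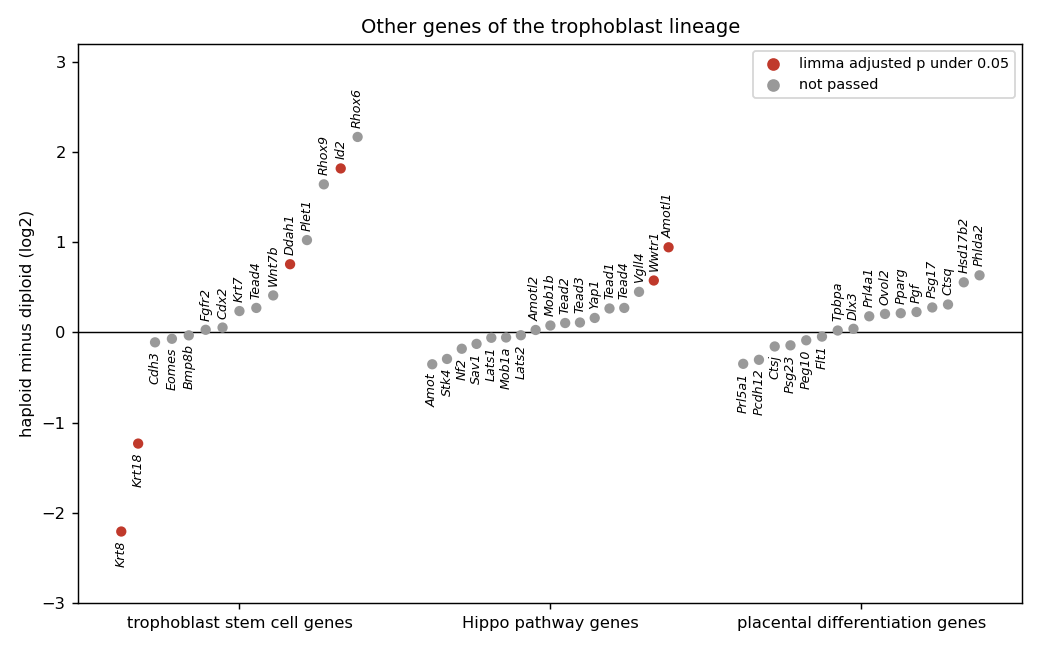
Difference between haploid and diploid samples (log2, vertical axis) for each measured gene of 3 lists, the trophoblast stem cell genes, the Hippo pathway genes and the placental differentiation genes, ordered within each list. Red points passed the adjusted threshold of 0.05: Krt8, Krt18, Ddah1 and Id2 in the first list, Wwtr1 and Amotl1 in the second and none in the third.

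The samples carried the defining genes of ES cells. Pou5f1, Sox2 and Nanog stood at 12.9 to 14.0 on every array. Of all genes 7.92% were called higher and 6.96% lower (15.4% and 15.8% at an unadjusted p under 0.05 in limma). Of 10 ES cell identity genes 3 rose and 0 fell (6 and 1 at an unadjusted p under 0.05 in limma). They were Klf4, by 0.68, Nanog, by 0.47, and Pou5f1, by 0.40 (log2, limma adjusted p = 0.0054, 0.0227 and 0.0246), while Sox2 differed by 0.09 (0.68). The call of Nanog was lost when diploid replicate 2, diploid replicate 3, HAP2 or HTG1 was left out (limma adjusted p = 0.0522 to 0.0906), and that of Pou5f1 in every omission but that of diploid replicate 1 (0.0503 to 0.0874) and with chromosome shifts subtracted (0.0544).

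Over the 7 lists for other cell types and tissues, 4 of 66 genes (6.06%) were called higher and 5 (7.58%) lower, near the 7.92% and 6.96% of all genes. Of 12 primitive endoderm genes 1 rose, the endocytic receptor component Amn (by 0.88), and 1 fell, Hnf4a (-0.47). Of 9 mesoderm genes 1 rose, the organizer factor Gsc (by 1.82), and 1 fell, Tbx6 (-0.38). Hnf4a and Tbx6 did not pass once single arrays were left out, in 5 and 6 of 6 omissions (limma adjusted p = 0.0549 to 0.121 and 0.0679 to 0.149). Without probe sets of the s and x type Hnf4a differed by -0.25 (limma adjusted p = 0.25), and Tbx6 also missed the threshold after quantile normalization (0.0725) and with every probe set tested on its own (0.0558). Of 7 germ cell genes, a lineage that shares Tfap2c, 2 rose, Dppa3 (by 2.67) and Prdm14 (by 0.99), and 1 fell, Prdm1 (-0.91). Dppa3 missed the threshold without diploid replicate 2 or 3 (limma adjusted p = 0.0503 and 0.0572). The mean level of the germ cell list was at most 9.21 in the diploid and at least 9.31 in the haploid samples. That mean includes Dppa3, whose difference was the largest of the list, while Prdm1 and Dnd1 (-0.96, not called) were lower. It therefore does not describe the list as a whole. Of 11 adult tissue genes 1 fell, the heart myosin Myh6 (-0.93), with values of 4.88 to 6.21. Of 9 surface ectoderm and 8 blood cell genes 0 passed in limma. At an unadjusted p under 0.05 in limma 0 surface ectoderm and 2 blood cell genes were lower, against 15.8% of all genes. Of 10 genes of feeder fibroblasts 1 fell, the collagen Col1a2, by 2.62 ± 0.29 (limma adjusted p = 0.00326). At an unadjusted p under 0.05 in limma 6 of the 10 were lower, against 15.8% of all genes. The mean level of that list ran from 5.97 to 6.81 in the diploid and from 5.40 to 5.60 in the haploid samples. For the blood cell list, a lineage that shares Gata2, the mean level was 5.82 to 6.02 in the diploid and 5.79 to 5.86 in the haploid samples. The part of other cell types in the differences of the members was not tested.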

How the data were processed

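The authors deposited 1 log2 value per probe set and array, the output of RMA according to the submitters' processing notes. The version and settings of RMA are not given in the sources used here. RMA sets the arrays to a common distribution, so values are relative and a change in total RNA per cell cannot be seen. No depth applies to arrays; their number, 6, limits the precision. Symbols came from GEO's platform annotation and chromosomes from RefSeq (GRCm38.p6), with 34741 probe sets matched. The 64 control probe sets and those with several symbols (932) or none (9160) were not used for genes.

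Groups came from the labels. Their comparison used lmFit and eBayes of limma 3.58.1 (R 4.3.3; two-sided, no covariate, no filter), with Benjamini-Hochberg adjustment over all genes at 0.05. A chromosome's shift is the median, over its genes above the median level, of values centred per gene, minus that of the autosomes. The steps were tested on simulated data.

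Members, gene lists and the alternatives (scaling, filter, choice of probe sets, variance model, array weights, chromosome shifts, omission of each array) were chosen with earlier results of these data known. The text names all members, a fixed set of lineage genes (Pou5f1, Nanog, Sox2, Cdx2, Eomes, Tead4, Fgfr2, Gcm1 and Tpbpa), up to 3 passing genes per list and the 3 genes most like each member that passed. Rhox6, Rhox9 and, for the trophoblast stem cell list, Ddah1 were added after their values were seen. Gcm1 and other listed genes without a probe set of 1 symbol were not analysed here.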

Additional observations from a re-analysis of the deposited data

How the results depend on the processing

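Gata2 and Ets2 passed as higher under all 15 alternatives, with differences of 1.04 to 1.51 and 0.80 to 1.36 (log2). Gata3 passed under 13 of the 14 alternatives that held it, all but the omission of diploid replicate 3. The filter on genes above the median level left Gata3 out. The count of members called higher was 5 with array weights, where Tfap2c and Ascl2 passed too, and 2 to 4 without single arrays. With array weights the calls over all 18193 genes rose too, to 2008 higher and 1802 lower, against 1441 and 1266 in the main comparison. With chromosome shifts subtracted 2 members, Plac1 (-0.68) and Esx1 (-0.53), were called lower. Both lie under the level of the genes that gave the X chromosome's shift of 0.75, so these calls follow from the subtraction. The count of members above the median was 3 against the median over genes. Over all genes, 2708 higher and 2390 lower calls were made when each probe set was tested on its own, where more features are tested, and 571 to 1395 higher and 399 to 1082 lower without single arrays. Without diploid replicate 3 the calls were 571 and 399, without diploid replicate 2 they were 678 and 518, and without haploid replicate 2 they were 806 and 623. Small differences changed sign in these settings: Elf5 when its probe sets were averaged (0.055) and with array weights (0.042), Eomes with array weights (0.021), Fgfr2 with quantile normalization (-0.0078) and chromosome shifts (-0.054), Tpbpa when its probe sets were averaged (-0.22), and Hand1 with chromosome shifts (0.18). Without single arrays Elf5 ran from -0.13 to 0.12, Cdx2 from -0.022 to 0.14, Eomes from -0.17 to 0.076, Fgfr2 from -0.16 to 0.19 and Tpbpa from -0.068 to 0.11. Where a sign changed, the cause was not tested. No paired analysis was possible because the labels number only the diploid replicates.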

Other observations

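Rhox6 and Rhox9, X-linked homeobox genes of the placenta, were singled out after their values were seen, for their low values in HTG1 beside HAP1 and HAP2, so that these are a description. Rhox6 stood at 9.88 in HAP1 and 9.11 in HAP2, and at 7.23 in HTG1, against 7.08, 6.41 and 6.22 in the diploid samples, so that all 3 lines were above them. Rhox9 stood at 9.10 and 8.38 in HAP1 and HAP2 and at 6.45 in HTG1, inside the diploid range of 6.25 to 6.50. Over all 3 lines neither passed: the differences were 2.17 ± 0.63 and 1.64 ± 0.60 (log2 ± SE, 3 arrays per group, adjusted p = 0.0618 and 0.115 in limma). Over all alternatives the limma adjusted p ran from 0.00648 to 0.181 for Rhox6 and from 0.00488 to 0.332 for Rhox9, lowest without HTG1, the line they were chosen on. With the X chromosome's shift subtracted they were 1.42 and 0.89 and did not pass. The difference between HTG1 and the other lines was not tested.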
